A study of Mus musculus with 6 samples.

Results

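The 9 genes described here, *Klf2*, *Klf3*, *S1pr1*, *S1pr2*, *Cd69*, *Ccr7*, *Selplg*, *Gpr183* and *Gpr18*, act in the egress of T cells from lymph nodes, their entry into them and their positioning inside them. They are 9 of the 14744 genes with a value in the table, were found there by symbol, and all 9 passed the filter on low values, 10 or more normalized counts in 3 or more libraries, which 11296 genes passed. The members were chosen by their measured values in this same contrast, so their values, differences, intervals and counts of calls are a description and support nothing by themselves.

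RNA was sequenced from T follicular helper (Tfh) cells, which give help to germinal center B cells, in 3 WT samples and 3 samples of *Bach2* fl/fl mice with Cd4-cre. The sample labels give the strain as C57BL/6 for all, and the study names a C57BL/6J background. The study designates Cd4-Cre littermates as WT, so that both groups carry the Cre, and Cd4-Cre acts in all T cells that have expressed CD4, CD8 T cells included, and not in Tfh cells alone. Mice were 2 to 3 months old per the study, and each sample held 10000 to 30000 CD4+ B220- CD44+ PD-1+ CXCR5+ cells from mesenteric lymph nodes, whose cDNA was amplified with a SMARTer kit. Nothing in the labels says whether replicates are separate animals, so each p-value measures the spread between these samples.

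The values are normalized read counts, that is, read counts per gene divided by a size factor for each library. Whole reads could be recovered for 5 libraries, with 6585742 and 7823717 reads in WT replicates 2 and 3 and 5045131, 10987752 and 7197242 reads in replicates 1, 2 and 3 labelled Bach2-cKO. WT replicate 1, whose normalized counts sum to 7809702, stood apart from the other libraries, with 11648 genes above 0 against 13111 to 13567 in the others.

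*Bach2*, the targeted gene, spans positions 32238804 to 32586108 of chromosome 4 (GRCm38). It was at 233, 222 and 105 normalized counts in WT replicates 1, 2 and 3 and at 399, 763 and 591 in replicates 1, 2 and 3 labelled Bach2-cKO. Each library labelled Bach2-cKO was thus above each WT library, which goes against the label. Limma gave a log2 fold change of 1.68 with a standard error of 0.37 and an adjusted p of 0.141, with 3 of 3 libraries higher. It was past the thresholds with DESeq2 on the 5 libraries with recovered reads, at 1.81, and in limma with library weights, at 2.36, and it was 1.10 with the length and GC trend of each library removed. The counts are per gene and include exons outside the deleted part, so they do not check the deletion itself. An exchange of labels and transcription of the deleted allele cannot be told apart from the *Bach2* counts alone. By flow cytometry, the study found follicular T cells of *Bach2*-deficient mice shifted from Foxp3+ toward Foxp3- cells. In these libraries *Foxp3*, named after its values were seen, was at 294 ± 63.8 normalized counts in WT (SD, n = 3). It was at 92.8 ± 46.4 in those labelled Bach2-cKO, without overlap. Whether labels were exchanged was not tested. The antisense gene *Bach2os*, which overlaps exons of *Bach2*, was at no more than 18.4 normalized counts in any library. Whether counting used strand is not given in the sources used here. *Bach2it1*, a transcript inside *Bach2* on the same strand, named after its values were seen, was at 2.02, 19.1 and 5.20 normalized counts in WT and at 50.3, 67.0 and 32.7 in the libraries labelled Bach2-cKO, also without overlap. For this reason the samples are named by their label, Bach2-cKO, and each direction below is drawn from those labels.

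KLF2 is a transcription factor that keeps T cells recirculating. It drives the gene of S1PR1, the receptor with which T cells follow sphingosine 1-phosphate (S1P) out of the lymph node, and FOXO1 and the MEF2 factors act upstream of it. Inside the node, CCR7 holds T cells in the T zone, GPR183 (EBI2) guides them toward oxysterols at the outer follicle, and S1PR2 confines Tfh and germinal center B cells to the follicle center. Tfh cells are known for low KLF2, low S1PR1 and low PSGL-1, the product of *Selplg*, next to other CD4+ T cells.

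The thresholds used here are an adjusted p under 0.01 with over 2-fold difference, cutoffs that the study applied with DESeq2 and that are used here with each tool. No gene of the whole table passed them in limma, 0 higher and 0 lower (0% of the 11296 genes tested in each direction), and 0 of the 9 members did. At an unadjusted p under 0.05, 1144 genes (10.1%) were higher and 1157 genes (10.2%) were lower in the libraries labelled Bach2-cKO, among them 2 and 2 of the members. edgeR on 5 libraries called 0 genes higher and 0 lower (0% each). From the same 5 libraries DESeq2 called 33 genes higher (0.292%) and 57 lower (0.505%), with 0 and 1 of the members (*Gpr18*). Limma with library weights called 561 genes higher (4.97%) and 567 lower (5.02%), with 1 member in each direction, *Klf2* higher and *Gpr18* lower. Groups that did not overlap were found for 1654 genes (14.6%) with higher and 1383 genes (12.2%) with lower Bach2-cKO values, with 1 member each way, *Klf3* and *Gpr18*. Since the contrast chose the members, nothing is read from their counts against these shares.

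**Figure D1:**
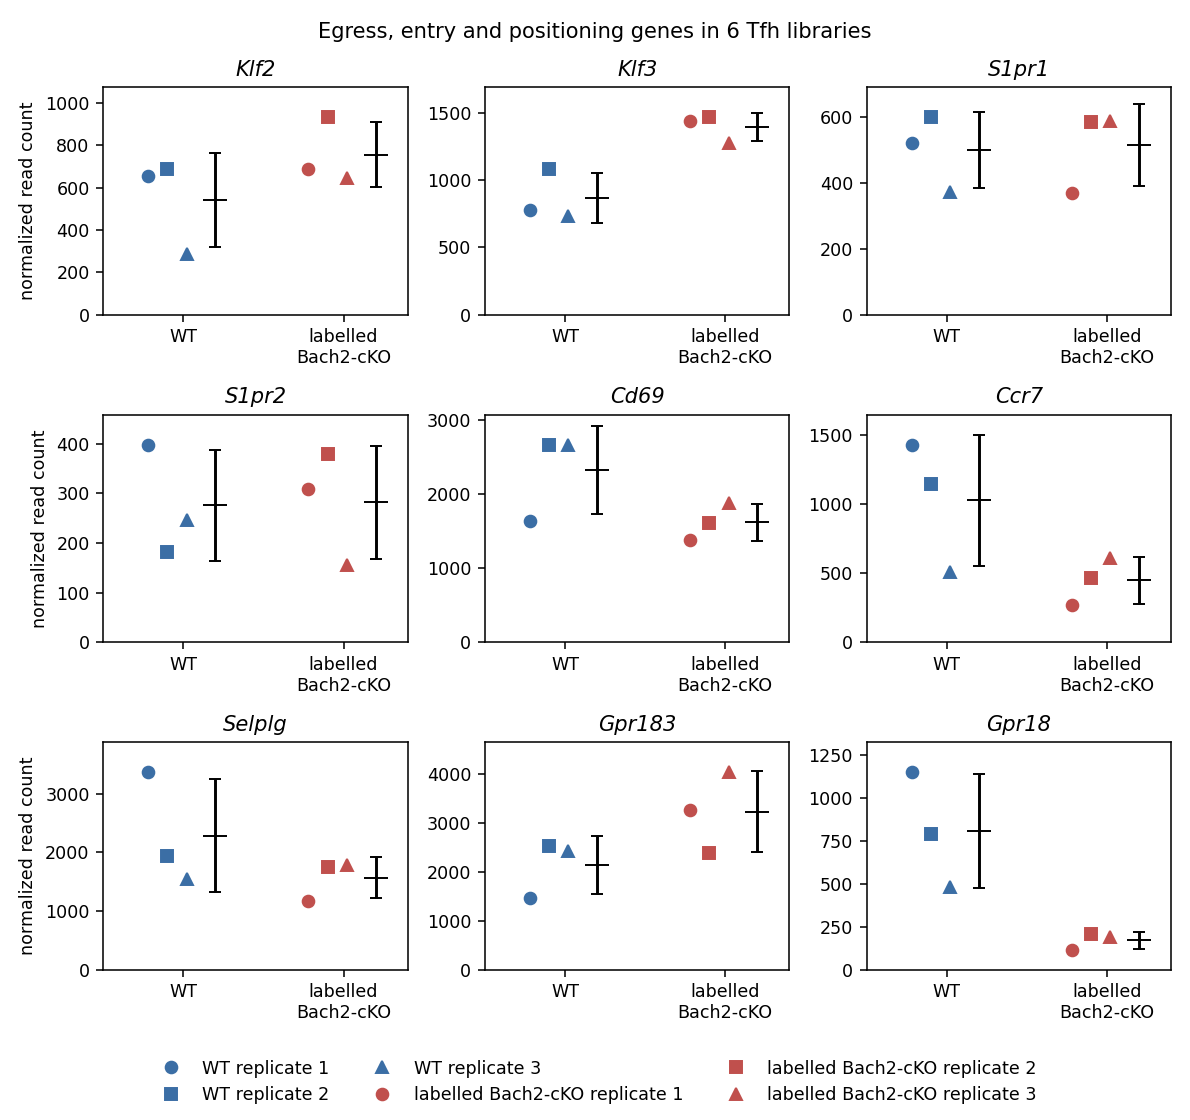
Normalized read count (vertical axes, starting at 0) of each of the 9 genes in the 3 WT libraries (blue) and the 3 libraries labelled Bach2-cKO (red), with a symbol for each replicate number and the mean and SD of each group in black. The groups are apart for *Klf3*, where the lowest library labelled Bach2-cKO is at 1275 and the highest WT library at 1081, and for *Gpr18*, where the lowest WT library is at 484 and the highest labelled Bach2-cKO at 209.

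Of the transcription factors, *Klf3* was higher in the libraries labelled Bach2-cKO, and *Klf2* was higher on average with overlapping groups. *Klf2* (chromosome 8, from 72319033 to 72321656 on the plus strand) was at 656, 686 and 288 normalized counts in WT replicates 1, 2 and 3, and at 687, 933 and 646 in replicates 1, 2 and 3 labelled Bach2-cKO. The low value of WT replicate 3 sets it apart from the other 5 libraries, which lie between 646 and 933. The means were 544 ± 222 and 755 ± 155 (SD, n = 3 each), and the log2 fold change, taken on log2(value + 1), was 0.56 (standard error 0.34, 95% interval -0.20 to 1.31), and without WT replicate 3 it was 0.15. The value of WT replicate 3 rests on 277 recovered reads (95% Poisson interval 245 to 312, for counting error only). With library weights, where *Klf2* passed the thresholds, its log2 fold change was 1.20. The largest weights were 5.54 for replicate 2 labelled Bach2-cKO, where *Klf2* was highest, and 2.51 for WT replicate 3, where it was lowest.

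*Klf3*, which encodes a repressor of the same family that binds the same CACCC boxes as KLF2, lies on chromosome 5 from 64803388 to 64832901 on the plus strand. It was at 780, 1081 and 736 normalized counts in WT replicates 1, 2 and 3, and at 1438, 1469 and 1275 in replicates 1, 2 and 3 labelled Bach2-cKO. The groups did not overlap, and the libraries labelled Bach2-cKO were the more alike, with 1394 ± 104 against 866 ± 188 (SD, n = 3 each). The mean ratio was 1.61-fold and the log2 fold change 0.71 (standard error 0.21, 95% interval 0.23 to 1.18). Across the whole table longer transcripts had the higher fold changes, with a Spearman rho of 0.320 over 11264 genes, and genes are not replicates of each other. Removing from each library its trend with transcript length and GC moved the median of all genes from 0.082 to -0.039, and left the log2 fold change of *Klf3* at 0.40. The part of transcript length in the difference was not tested beyond this.

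Promoter sequences from RefSeq (GRCm38.p6) matched 5 of the 9 genes, *Klf2*, *Klf3*, *S1pr2*, *Gpr183* and *Gpr18*. *S1pr1*, *Ccr7*, *Cd69* and *Selplg* had no entry. The *Klf3* window lies in an annotated exon and was not searched. The *Klf2* promoter is shown because its product heads the pathway, over the 221 bases from chr8:72318812-72319032 on the plus strand, upstream of the gene's start and in no annotated exon.
*Klf2*: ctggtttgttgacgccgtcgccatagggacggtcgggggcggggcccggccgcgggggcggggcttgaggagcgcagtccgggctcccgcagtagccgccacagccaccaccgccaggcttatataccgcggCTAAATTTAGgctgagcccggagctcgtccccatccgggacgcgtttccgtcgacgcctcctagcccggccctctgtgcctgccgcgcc
The motifs searched on both strands were CACCC for KLF factors, TGANTCA for the AP-1 type core that BACH2 and its partners bind, TGTTTAC for FOXO and the MEF2 consensus, and no match overlapped another. The capitals mark 1 match to the MEF2 consensus, which 2.61% of the 32851 RefSeq promoters hold in the same stretch. CACCC (48.0% of promoters), TGANTCA (6.13%) and TGTTTAC (2.81%) were not in this window. Of its bases 71.5% were G or C, against a median of 52.0% over all promoters. The *S1pr2* window of 250 bases, at 59.2% G or C, held 1 match to CACCC, letters that 52.0% of promoters hold in that length, and none to the other motifs. A match is a description of letters and not a binding site.

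**Figure D2:**
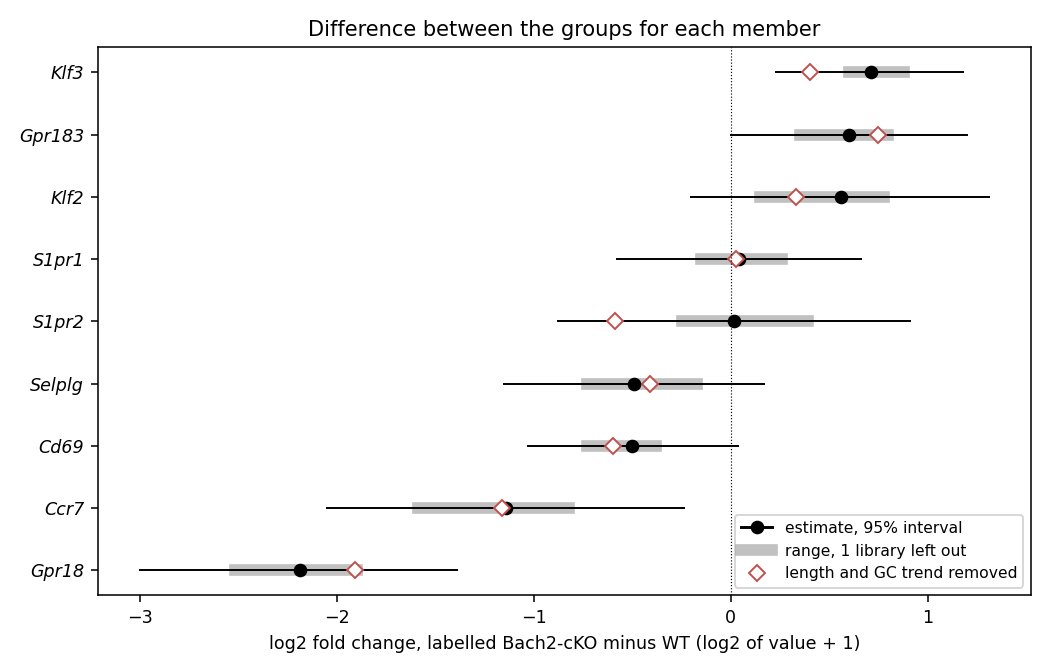
Log2 fold change of each gene (libraries labelled Bach2-cKO minus WT, on the log2(value + 1) scale) with its 95% interval as a black line, the range over fits with 1 library left out as a gray bar, and the value after the length and GC trend was removed as a red diamond. *Gpr18* is the farthest from 0, at -2.19, and *S1pr1* and *S1pr2* lie at 0.041 and 0.014.

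The S1P receptors differed less between the groups than between replicates. *S1pr1*, the egress receptor (chromosome 3, from 115710433 to 115715072 on the minus strand), was at 523, 601 and 374 normalized counts in WT replicates 1, 2 and 3, and at 371, 587 and 588 in replicates 1, 2 and 3 labelled Bach2-cKO. Each group held 1 low library, WT replicate 3 and replicate 1 labelled Bach2-cKO. Its log2 fold change was 0.041 (standard error 0.28, 95% interval -0.58 to 0.66), it was -0.044 with median rescaling, and with 1 library left out it ran from -0.15 to 0.26.

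*S1pr2*, the confinement receptor (chromosome 9, from 20962361 to 20976781 on the minus strand), was at 398, 182 and 246 normalized counts in WT replicates 1, 2 and 3, and at 309, 379 and 156 in replicates 1, 2 and 3 labelled Bach2-cKO. The highest and the lowest of the 6 libraries were thus of different groups. The difference in log2 was 0.014 (standard error 0.40, 95% interval -0.88 to 0.91), and it was -0.071 with median rescaling, -0.008 with quantile normalization, 0.59 with library weights and -0.59 once the length and GC trend was taken out. The level ratio of *S1pr1* to *S1pr2* per kb of exon was 3.44, 8.66 and 3.97 in WT replicates 1, 2 and 3, and 3.14, 4.05 and 9.83 in replicates 1, 2 and 3 labelled Bach2-cKO, with overlapping groups.

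*Cd69* encodes a membrane protein that binds S1PR1 and takes it off the cell surface, and lies on chromosome 6 from 129267325 to 129275436 on the minus strand. It was at 1635, 2664 and 2667 normalized counts in WT replicates 1, 2 and 3, and at 1374, 1604 and 1876 in replicates 1, 2 and 3 labelled Bach2-cKO. WT replicates 2 and 3 were above every library labelled Bach2-cKO, and WT replicate 1 lay among them. This gave a log2 fold change of -0.50 (standard error 0.24, 95% interval -1.03 to 0.037), and -0.73 without WT replicate 1.

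The genes of lymph node entry and of the T zone, *Ccr7* and *Selplg*, were lower on average in the libraries labelled Bach2-cKO, with overlapping groups. *Ccr7* encodes the receptor for CCL19 and CCL21 and lies on chromosome 11 from 99144196 to 99155077 on the minus strand. It was at 1433, 1148 and 507 normalized counts in WT replicates 1, 2 and 3, and at 273, 464 and 610 in replicates 1, 2 and 3 labelled Bach2-cKO. WT replicates 1 and 2 were above the rest, and WT replicate 3 was below the highest library labelled Bach2-cKO. The means of 1029 ± 474 and 449 ± 169 (SD, n = 3 each) gave a log2 fold change of -1.14 (standard error 0.41, 95% interval -2.05 to -0.24), and it was -0.60 with library weights.

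*Selplg* encodes PSGL-1, the ligand of P-selectin, and lies on chromosome 5 from 113818536 to 113832644 on the minus strand. It was at 3366, 1945 and 1549 normalized counts in WT replicates 1, 2 and 3, and at 1169, 1745 and 1788 in replicates 1, 2 and 3 labelled Bach2-cKO. Only WT replicate 1 was far from the other libraries. Its log2 fold change was -0.49 (standard error 0.30, 95% interval -1.15 to 0.17), and it was -0.17 without that library and -0.047 with library weights.

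The positioning receptors *Gpr183* and *Gpr18* are neighbours on chromosome 14, and their averages differed in opposite directions. *Gpr18* (from 121911253 to 121915781 on the minus strand) encodes a G protein-coupled receptor of lymphocytes. It was at 1148, 787 and 484 normalized counts in WT replicates 1, 2 and 3, and at 114, 209 and 189 in replicates 1, 2 and 3 labelled Bach2-cKO. The lowest WT library was above the highest library labelled Bach2-cKO, with means of 806 ± 332 and 171 ± 50.3 (SD, n = 3 each), 4.72-fold higher in WT. The log2 fold change was -2.19 (standard error 0.36), and 88 of the 11296 genes tested had a more negative one. With 1 library left out it ran from -2.52 to -1.90, and with library weights it was -1.58. The lowest value rests on 77 recovered reads, in replicate 1 labelled Bach2-cKO, with a 95% Poisson interval of 60.8 to 96.2 for counting error only.

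*Gpr183* (from 121952551 to 121965195 on the minus strand) was at 1469, 2529 and 2432 normalized counts in WT replicates 1, 2 and 3, and at 3275, 2379 and 4039 in replicates 1, 2 and 3 labelled Bach2-cKO. Replicates 1 and 3 labelled Bach2-cKO were above the other 4 libraries, and replicate 2 lay among the WT libraries. The log2 fold change was 0.60 (standard error 0.27, 95% interval 1.1e-05 to 1.20), it was 0.35 without WT replicate 1, and with library weights, which lean on replicate 2 labelled Bach2-cKO, it was 0.094. Within each library, the level of *Gpr183* over that of *Gpr18* per kb of exon was 0.664, 1.67 and 2.61 in WT replicates 1, 2 and 3, and 14.9, 5.90 and 11.1 in replicates 1, 2 and 3 labelled Bach2-cKO. This ratio, which does not depend on the scaling between libraries, did not overlap between the groups, as *Gpr18* alone did not.

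Both genes lie within *Ubac2*, named after its values were seen, a gene on the opposite strand whose exons overlap neither of them. *Ubac2* was at 1599, 2077 and 3475 normalized counts in WT replicates 1, 2 and 3, and at 2688, 1947 and 3139 in replicates 1, 2 and 3 labelled Bach2-cKO. The groups overlapped, and the log2 fold change was 0.17 (standard error 0.30), a value that was -0.08 without WT replicate 1. The promoter windows of the neighbours are shown because the genes differed in opposite directions, at chr14:121965196-121965443 for *Gpr183* and chr14:121915889-121916138 for *Gpr18*, both on the minus strand and in no annotated exon.
*Gpr183*: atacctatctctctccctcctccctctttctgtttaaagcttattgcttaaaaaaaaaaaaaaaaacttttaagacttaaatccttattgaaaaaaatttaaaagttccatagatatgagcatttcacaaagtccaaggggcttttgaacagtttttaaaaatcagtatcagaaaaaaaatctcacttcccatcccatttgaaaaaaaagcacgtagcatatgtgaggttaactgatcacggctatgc
*Gpr18*: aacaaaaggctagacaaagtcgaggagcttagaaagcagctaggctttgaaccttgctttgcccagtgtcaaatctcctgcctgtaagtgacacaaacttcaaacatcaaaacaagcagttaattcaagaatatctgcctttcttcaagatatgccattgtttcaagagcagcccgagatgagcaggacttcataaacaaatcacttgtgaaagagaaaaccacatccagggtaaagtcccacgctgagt
There are no capitals, since 0 matches to the 4 motifs above were found in the 248 bases of *Gpr183* or the 250 bases of *Gpr18*. In the stretch of 250 bases, 52.0% of promoters hold CACCC, 6.75% TGANTCA, 3.17% TGTTTAC and 2.92% the MEF2 consensus, and in that of 248 bases 51.8%, 6.73%, 3.14% and 2.91% do. Both windows were poorer in G and C, at 31.9% and 42.4%, than the median of 52.4% over all promoters. No match says only that these letters are not in these windows.

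Levels of different genes can be compared per length only. Per kb of exon, the order of the WT means was *Gpr183* at 742 ± 203, *Gpr18* at 538 ± 222, *Selplg* at 535 ± 224, *Ccr7* at 520 ± 240, *Cd69* at 357 ± 91.4, *Klf2* at 294 ± 120, *S1pr1* at 164 ± 37.8, *Klf3* at 77.0 ± 16.7 and *S1pr2* at 34.5 ± 13.9 normalized counts per kb (SD, n = 3). From *Gpr183* down to *S1pr1* each gene's libraries overlapped those of the next, and the steps from *S1pr1* to *Klf3* and from *Klf3* to *S1pr2* had no overlap. In the libraries labelled Bach2-cKO, *Gpr183* at 1119 ± 288 stood apart from *Klf2*, the next gene, at 409 ± 83.8. *Gpr18* was second of the 9 in WT and eighth, at 114 ± 33.5, in the libraries labelled Bach2-cKO, and *S1pr2* was last in both. The order depends on the length used, since per kb of the longest transcript *Selplg* led in WT, at 988, ahead of *Gpr183* at 787.

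**Figure D3:**
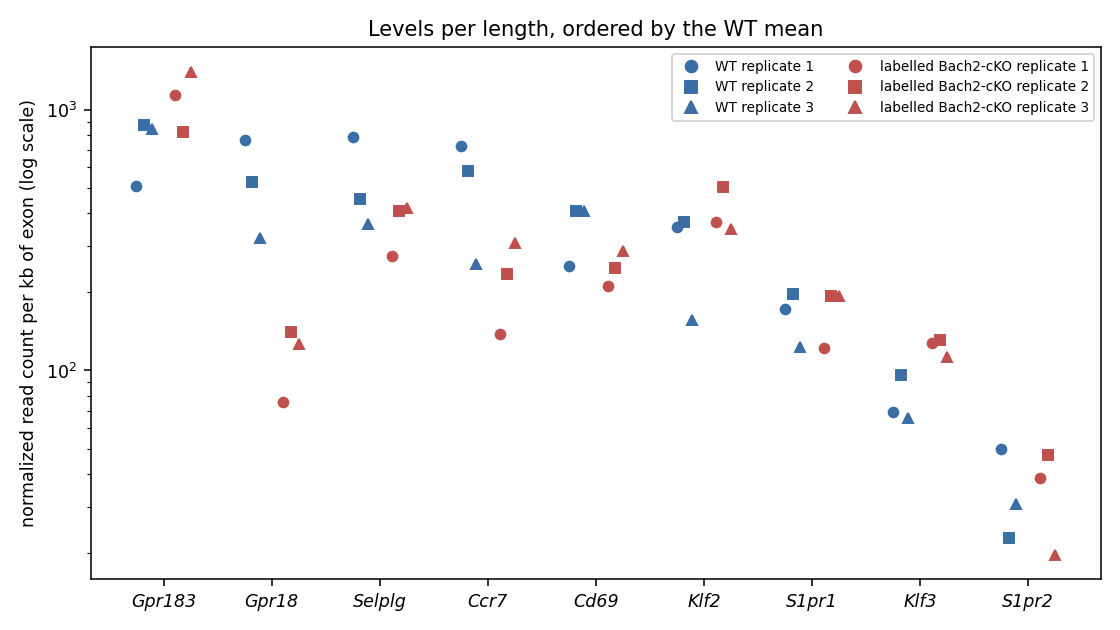
Normalized read count per kb of exon (vertical log axis) of the 9 genes in each library, ordered by the WT mean, with WT libraries in blue and libraries labelled Bach2-cKO in red. *Gpr18* lies between 323 and 766 in WT and between 76.0 and 140 in the libraries labelled Bach2-cKO, and *S1pr2* is the lowest gene in both groups.

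The members also varied among themselves inside the groups. After each group's mean was subtracted, 5 of the 36 pairs had a Pearson r of log2 values over 0.8 across the 6 libraries and 1 pair had one under -0.8. *Selplg* and *Gpr18* (r = 0.96), *Ccr7* and *Gpr18* (r = 0.94), *S1pr1* and *Ccr7* (r = 0.89) and *Ccr7* and *Selplg* (r = 0.88) were high and low in the same libraries, while *S1pr2* and *Gpr183* (r = -0.92) were not. These r come from 6 libraries that share preparation and depth and are a description. The share of all gene pairs past these cutoffs was not computed, so nothing is read from the counts. Outside the 9 members, the genes whose values were most like those of *Klf2* over the 6 libraries were *Rgl1*, *Smg9*, *Nom1*, *Esyt1* and *Ganab*, with r from 0.98 to 0.99, and from 0.97 to 0.99 after the group means were subtracted. All 5 were lowest in WT replicate 3, as *Klf2* was. Since these genes were picked for the highest r among the tested genes, a high r is built in.

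Among 14 genes that regulate KLF2 or serve lymph node entry, 0 passed the thresholds in limma, and 2 were higher and 0 lower at an unadjusted p under 0.05. Beside this count and those of the lists below stand the shares over all genes tested, 10.1% higher and 10.2% lower at that p, with 6185 positive and 5111 negative log2 fold changes of 11296. The median of their log2 fold changes was 0.23, against 0.082 over all genes tested, and -0.076 against -0.039 with the length and GC trend removed. *Itgal*, the alpha chain of the integrin LFA-1, was at 1614, 2671 and 2898 normalized counts in WT replicates 1, 2 and 3, and at 7365, 5114 and 4049 in replicates 1, 2 and 3 labelled Bach2-cKO (log2 fold change 1.20 with standard error 0.28, and adjusted p = 0.141 in limma). Every library labelled Bach2-cKO was above every WT library. With the length and GC trend removed, the log2 fold change of *Itgal* was 0.62 and that of *Foxo3*, 1.29 before, was 0.58. The other genes named by size were *Foxo3* at 96.1 ± 37.8 against 237 ± 92.8 and *Foxo4* at 38.9 ± 15.4 against 75.1 ± 42.0 normalized counts in WT and in the libraries labelled Bach2-cKO (SD, n = 3). *Foxo1* is named for its known place upstream of KLF2 after its values were seen. It had a log2 fold change of 0.24 (standard error 0.23), which was -0.31 with the length and GC trend removed.

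Of 15 other KLF family members, 12 had a value and 8 were tested. Of these, 0 passed the thresholds in limma, and 2 were higher and 0 lower at an unadjusted p under 0.05, with a median log2 fold change of 0.28 that was -0.11 with the length and GC trend removed. With 1 library left out this median ran from 0.13 (without WT replicate 3) to 0.48 (without WT replicate 1), and library weights gave 0.63. *Klf13* was at 410 ± 42.9 normalized counts in WT and 661 ± 84.7 in the libraries labelled Bach2-cKO (SD, n = 3) without overlap, with a limma log2 fold change of 0.69 (standard error 0.22 and adjusted p = 0.161) that was -0.087 with the length and GC trend removed. *Klf8* and *Klf9* were near the floor, with at most 40.9 and 41.6 normalized counts in any library and log2 fold changes of 2.91 (standard error 1.29) and -1.33 (standard error 0.94).

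The other S1P receptors and the enzymes and carriers of S1P were 14 genes, of which 8 were tested. None passed the thresholds in limma, 1 was higher and 0 lower at an unadjusted p under 0.05, and 7 had a positive and 1 a negative log2 fold change. The median log2 fold change was 0.61, or 0.29 without WT replicate 1 and 0.14 with quantile normalization. With the length and GC trend removed it was 0.45, beside -0.039 over all genes. The gene at that p was *Sgpp1*, an S1P phosphatase named after its values were seen, at 305 ± 34.3 normalized counts in WT and 552 ± 95.4 in the libraries labelled Bach2-cKO (SD, n = 3), without overlap. *Sphk2*, a kinase that makes S1P, was at 45.8 ± 20.2 and 84.4 ± 31.0 normalized counts (SD, n = 3) in WT and in the libraries labelled Bach2-cKO. *Ppap2c*, a lipid phosphate phosphatase, was at 41.7 ± 4.28 and 17.5 ± 6.48, and *Sgpp2*, another S1P phosphatase, at 7.84 ± 7.34 and 10.9 ± 4.38 normalized counts.

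Positioning receptors signal through G proteins, and of 23 such signalling genes 21 were tested. None passed the thresholds in limma, 3 were higher and 1 lower at an unadjusted p under 0.05, 17 had a positive and 4 a negative log2 fold change (6185 and 5111 over all genes), and the median was 0.48, or 0.088 with the length and GC trend removed. With 1 library left out the median ran from 0.29 (without WT replicate 2) to 0.65 (without replicate 3 labelled Bach2-cKO). The log2 fold changes that were largest in size were those of *Arhgef11* at 1.72 (standard error 1.07), *Arhgef12* at 1.60 (standard error 0.82), both RhoA exchange factors downstream of the G12 family, and the receptor kinase *Grk5* at 1.36 (standard error 0.77). Each of these genes was lowest in WT replicate 1, and without it the values of *Arhgef11*, *Arhgef12* and *Grk5* were 0.42, 0.52 and 0.81. *Gna13*, the G protein alpha subunit through which S1PR2 acts, named after its values were seen, had a log2 fold change of 0.48 (standard error 0.24), which was 0.30 without WT replicate 1 and 0.084 once the length and GC trend was taken out.

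Of 14 other receptors and guidance genes of the follicle and lymph node, all 14 were tested, 0 passed the thresholds in limma, and 3 were higher and 2 lower at an unadjusted p under 0.05, with a median log2 fold change of 0.0063 beside 0.082 over all genes, and -0.029 beside -0.039 with the length and GC trend removed. *Ccr6*, the receptor for CCL20, was at 645, 273 and 227 normalized counts in WT replicates 1, 2 and 3, and at 59.1, 62.3 and 50.1 in replicates 1, 2 and 3 labelled Bach2-cKO. *Cxcr3*, a receptor of type 1 helper T cells for interferon-induced chemokines, was at 1276, 952 and 1174 normalized counts in WT replicates 1, 2 and 3, and at 251, 247 and 477 in replicates 1, 2 and 3 labelled Bach2-cKO. For both, each library labelled Bach2-cKO was below each WT library, with log2 fold changes of -2.56 (standard error 0.43) and -1.86 (standard error 0.29) and a limma adjusted p of 0.141 for each. Both were past the thresholds with DESeq2 on 5 libraries, at -2.16 and -1.74, and in limma with library weights, at -2.03 and -2.11. *Cnr2*, the cannabinoid receptor CB2, was at 0, 14.6 and 0 normalized counts in WT replicates 1, 2 and 3, and at 25.1, 37.5 and 32.7 in replicates 1, 2 and 3 labelled Bach2-cKO (limma adjusted p = 0.175). *Cxcr5*, the follicle homing receptor used in the sort and named after its values were seen, was at 1699 ± 307 and 1835 ± 497 normalized counts (SD, n = 3). The level of *Cxcr5* over that of *Ccr7* per kb of exon was 0.668, 0.747 and 2.39 in WT replicates 1, 2 and 3, and 4.40, 1.63 and 2.15 in replicates 1, 2 and 3 labelled Bach2-cKO, with WT replicate 3 among the latter.

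Of 4 enzymes that make or break down the oxysterol ligands of GPR183, 1 was tested, *Cyp27a1*, at 24.8 ± 15.5 and 10.9 ± 11.5 normalized counts (SD, n = 3). Of 14 genes of selectin ligand glycosylation, 11 were tested, 0 passed the thresholds in limma and 0 had an unadjusted p under 0.05. Their median log2 fold change was -0.30, or 0.14 without WT replicate 1. *St3gal3* at 1.39 (standard error 1.09), *C1galt1* at 0.99 (standard error 0.58) and *Tpst1*, a tyrosine sulfotransferase that can modify PSGL-1, at -0.94 (standard error 0.49) had the log2 fold changes that were largest in size. Each moved with 1 library left out, to 0.44 for *St3gal3* without WT replicate 2, and to 0.20 for *C1galt1* and -0.54 for *Tpst1* without WT replicate 1.

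**Figure D4:**
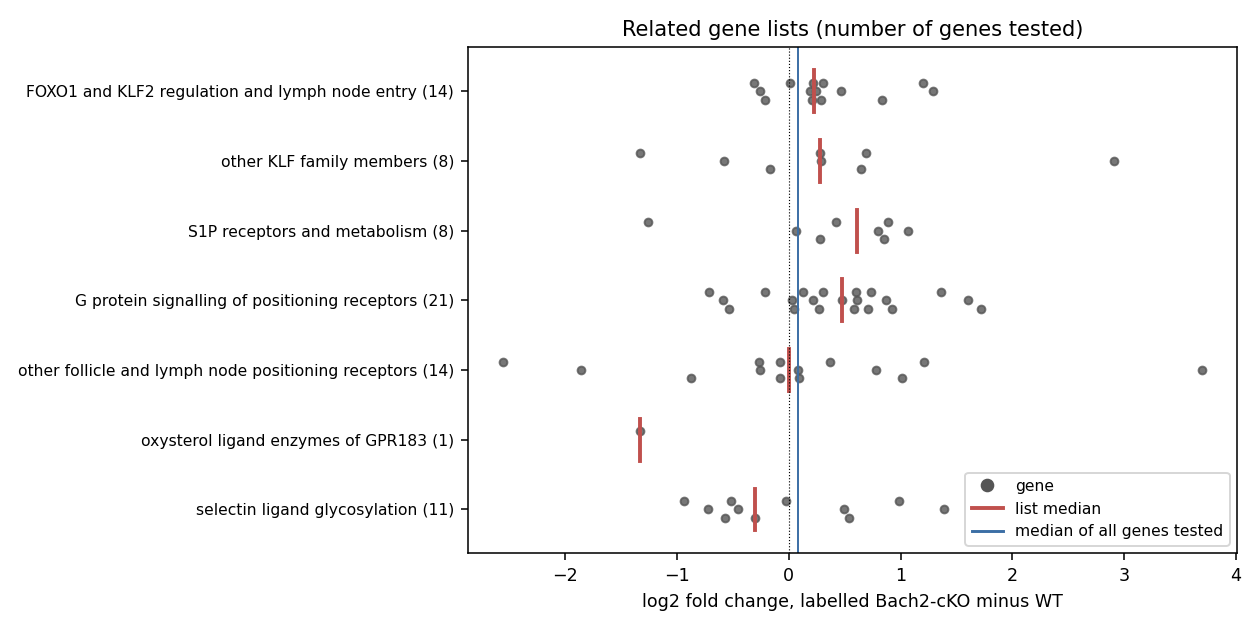
Log2 fold change (horizontal axis, libraries labelled Bach2-cKO minus WT) of each tested gene in 7 lists related to the 9 genes, with the median of each list in red and that of all genes tested in blue. List medians run from -1.33, for a list with 1 tested gene, to 0.61, and the median of all genes is 0.082.

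In these bulk samples fewer cells of a type and less RNA per cell cannot be told apart, and marker lists were summed in each library. *Bcl6*, *Cd4*, *Cd44*, *Cd3e*, *Icos*, *Satb1*, *Dapl1*, *Foxp3*, *Ms4a1* and *Egr1* are named from these lists after their values were seen. Of 9 Tfh markers all 9 were tested, summing to 30835, 31601 and 41954 normalized counts in WT replicates 1, 2 and 3, and to 28238, 22572 and 29216 in replicates 1, 2 and 3 labelled Bach2-cKO. Over the 6 libraries together *Sh2d1a* was the most abundant, though in WT its mean of 10197 was below that of *Cd3e*. The list's genes differed in both directions. *Bcl6*, *Cd4* and *Cd44* were higher and *Cd3e* and *Icos* lower in each library labelled Bach2-cKO than in each WT library, so the sum does not stand for the list. *Cd3e*, a gene of all T cells, was at 10732 ± 1142 and 5304 ± 805 normalized counts (SD, n = 3), a large share of the sum. Of 9 naive T cell markers all 9 were tested, summing to 10237, 11812 and 9313 against 15037, 15266 and 11830 normalized counts, with *Tcf7* the most abundant. This sum was higher in each library labelled Bach2-cKO than in each WT library, and single genes of the list differed in both directions. *Satb1* was at 507 ± 173 and 1733 ± 664, and *Dapl1* at 224 ± 107 and 19.0 ± 9.98 normalized counts in WT and in the libraries labelled Bach2-cKO (SD, n = 3).

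Of 7 Treg and T follicular regulatory markers all 7 were tested, 2 were lower at an unadjusted p under 0.05 and all 7 had a negative log2 fold change, with a median of -0.40. Over all genes tested 10.2% were lower at that p, and 5111 of 11296 had a negative log2 fold change. Their sums were 7895, 8390 and 11827 normalized counts in WT and 8028, 6810 and 10084 in the libraries labelled Bach2-cKO, led by *Ikzf2*. The defining gene *Foxp3* was at 222, 315 and 344 normalized counts in WT replicates 1, 2 and 3, and at 47.3, 140 and 91.0 in replicates 1, 2 and 3 labelled Bach2-cKO, with a limma log2 fold change of -1.76 (standard error 0.43 and adjusted p = 0.141). It was past the thresholds with DESeq2, at -1.84, and in limma with library weights, at -1.44. Each library labelled Bach2-cKO was below each WT library, as for *Gpr18*, *Ccr6* and *Cxcr3*, and the part of FOXP3+ cells in those differences was not tested.

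Of 12 B cell markers 11 had a value and 8 were tested, and the 11 summed to 289, 912 and 656 normalized counts in WT and to 526, 497 and 396 in the libraries labelled Bach2-cKO. WT replicates 2 and 3 were above every library labelled Bach2-cKO, and WT replicate 1 was the lowest of all libraries. *Cd79b* was the most abundant over the 6 libraries together, but not in the libraries labelled Bach2-cKO alone, and *Ighm* has no value in the table. *Ms4a1*, the gene of CD20, was at 38.2 ± 6.56 and 5.29 ± 4.28 normalized counts (SD, n = 3), but the list differed in both directions, with 3 positive and 5 negative log2 fold changes. *Gpr183*, *Ccr7* and *Ccr6* are also expressed by B cells, and the part of B cell RNA in their values was not tested. All 10 myeloid and dendritic cell markers had a value and 9 were tested, and the 10 summed to 2119, 7886 and 3868 normalized counts in WT and to 1917, 5214 and 1718 in the libraries labelled Bach2-cKO, most of it *Lyz2*. The sums were highest in replicate 2 of each group, and the groups overlapped. Of 6 CD8 T and NK cell markers all 6 were tested, summing to 797, 1390 and 986 against 526, 1001 and 585 normalized counts, led by *Cd8b1*. Of 10 endothelial and stromal markers 9 had a value and 2 were tested, and the 9 summed to 456, 566 and 562 against 633, 526 and 470 normalized counts, nearly all of it *Pecam1*, which T cells also express, and *Pdpn* has no value in the table. Of 10 immediate early genes, which mark cell handling and also stimulation through the T cell receptor, all 10 had a value and 8 were tested. Their sums of 3435, 2563 and 2921 in WT and 2950, 3226 and 3307 normalized counts in the libraries labelled Bach2-cKO overlapped. *Junb* was the most abundant over the 6 libraries together, but not in the libraries labelled Bach2-cKO alone. *Egr1*, at 284 ± 137 and 726 ± 84.1 (SD, n = 3) in WT and in the libraries labelled Bach2-cKO, did not overlap.

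**Figure D5:**
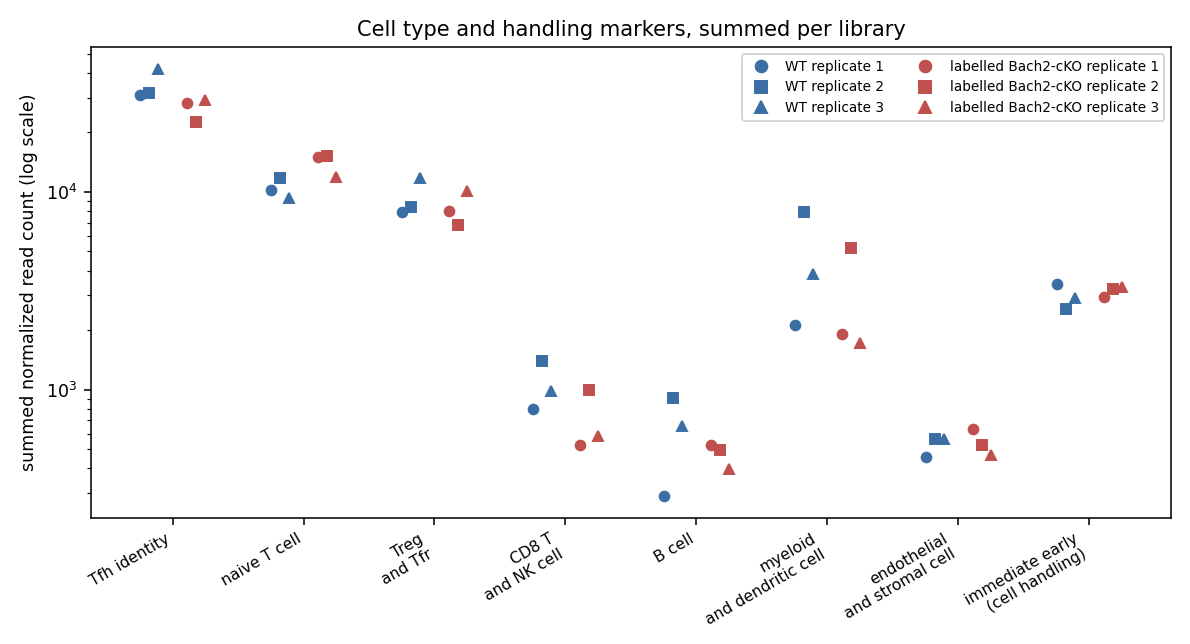
Summed normalized read count (vertical log axis) of 8 marker lists in each library, WT in blue and the libraries labelled Bach2-cKO in red, with a symbol for each replicate number. The sums of the naive T cell list are higher in each library labelled Bach2-cKO, with the closest at 11830 against 11812 in WT. Those of the Tfh list are higher in each WT library, though 4 of its 9 genes had a positive log2 fold change and *Bcl6*, *Cd4* and *Cd44* were higher in the libraries labelled Bach2-cKO without overlap. The other lists overlap between the groups.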

How the data were processed

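RNA-seq libraries of 3 WT and 3 Bach2-cKO samples were compared. The deposited signal is a normalized read count per gene, that is, counts that the authors divided by a size factor per library. The study's methods name Tophat2, HTSeq and DESeq2, while the submitters' processing notes name STAR 2.5.2b, DESeq, DESeq2 1.20.0 and R 3.5.1 with GRCm38, so the aligner is not settled. Whether counting used strand is not given in the sources used here. Values were whole multiples of a step per library, within 0.01, for 100% of values, and the multiples were taken as reads in 5 libraries. WT replicate 1, with a step of 1.0093, was left out of count tests, since no step so near a power of 10 was accepted, and would hold 7737531 reads if a step were 1 read. PCR copies were not told apart, so Poisson intervals cover counting error only.

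Limma 3.58.1 (R 4.3.3) compared the groups on log2(value + 1) over 11296 genes, using its variance trend and the Benjamini-Hochberg adjustment. For low genes a fold change on this scale depends on the added 1 and can differ from that of a count test. *Cnr2*, at 3.70, was at 4.36 with 0.5 added and 2.21 with 5 added. Without WT replicate 1 it was at 3.04, and edgeR on the same 5 libraries gave 2.11. The cutoffs (adjusted p under 0.01, over 2-fold) are those that the study applied with DESeq2, used here with limma. edgeR 4.0.16 and DESeq2 1.42.0 were used on recovered reads. Lengths, GC content and coordinates came from GENCODE M21 on GRCm38, matched by symbol for 14329 genes and by an older symbol for 363 more. Python 3.11.15, pandas 2.3.3, numpy 2.4.6, scipy 1.17.1 and matplotlib 3.10.9 were used for summaries and plots. Exact permutation of 3 against 3 libraries cannot give a p under 0.1.

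The members and lists were chosen with earlier results of these data known, and the promoter motifs were chosen after the promoters had been seen. Genes were named by rule: *Bach2*, the 9 members, list genes past the thresholds, the 3 genes of each related list with the log2 fold changes largest in size, and the most abundant (over the 6 libraries together) and the undetected genes of each marker list. *Foxo1*, *Gna13*, *Cxcr5*, *Ubac2*, *Bach2it1*, *Sgpp1* and 10 marker genes were added after their values were seen. Alternatives were other pseudocounts, filters, scalings, variance models, library weights, a length and GC trend, count tests, thresholds, single libraries left out and a block for replicate number. The procedures were tested on simulated data before use.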

Additional observations from a re-analysis of the deposited data

How the results depend on the processing

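Of 18 alternative settings, 4 (both filters, the variance model and the replicate block) cannot move a log2 fold change. Over the other 14, *Klf2*, *Klf3*, *Cd69*, *Ccr7*, *Selplg*, *Gpr183* and *Gpr18* had the sign of their log2 fold change in all 14, *S1pr1* in 10 and *S1pr2* in 7. Leaving out 1 library at a time gave log2 fold changes of 0.15 to 0.78 for *Klf2*, 0.60 to 0.88 for *Klf3*, -0.15 to 0.26 for *S1pr1*, -0.25 to 0.39 for *S1pr2*, -0.73 to -0.38 for *Cd69*, -1.59 to -0.82 for *Ccr7*, -0.73 to -0.17 for *Selplg*, 0.35 to 0.80 for *Gpr183*, -2.52 to -1.90 for *Gpr18* and 1.31 to 1.93 for *Bach2*. Library weights, from 0.206 for WT replicate 1 to 5.54 for replicate 2 labelled Bach2-cKO, gave 561 genes higher and 567 lower, with 1 member called each way, and log2 fold changes of 1.20 for *Klf2*, 0.094 for *Gpr183*, -1.58 for *Gpr18* and 2.36 for *Bach2*. With DESeq2, 33 genes were called higher and 57 lower, 1 member among the latter, and *Bach2* was at 1.81. At an unadjusted p under 0.05 there were 1144 genes higher and 1157 lower, with 2 members each way. Of the other genes named, *Ccr6*, *Cxcr3*, *Foxp3*, *Dapl1*, *Satb1*, *Cd3e* and *Icos* were past the thresholds with DESeq2 and with library weights, and *Foxo3*, *Cnr2*, *Ms4a1*, *Egr1* and *Bach2it1* with library weights only. *Klf3* was at 0.40 with the length and GC trend removed. The cause of these shifts was not tested.

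Some log2 fold changes had the other sign in some settings. With library weights *Cyp27a1* was at 0.40, *Cxcr5* at -0.40, *Ubac2* at -0.47 and *Pecam1* at -0.064. With the length and GC trend removed *Klf13* was at -0.087, *Foxo1* at -0.31, *Cxcr5* at -0.049 and *Pecam1* at -0.12. With quantile normalization *Sgpp2* was at -0.00027 and *Ikzf2* at 0.072, and with median rescaling *Pecam1* at -0.053. With edgeR and DESeq2, *Sgpp2* was at -0.11 and -0.14, *Pecam1* at -0.049 and -0.073, and *Ubac2* at -0.10 and -0.13. Without 1 library, values spanned -0.14 to 1.84 for *Sgpp2*, -0.36 to 0.054 for *Ikzf2*, -0.87 to 0.13 for *Cd8b1*, -0.067 to 0.10 for *Pecam1*, -0.066 to 0.33 for *Cxcr5* and -0.08 to 0.48 for *Ubac2*. Many values kept their sign but were nearer 0 in some setting. Among them were 0.52 for *Foxo4*, 0.39 for *Sphk2* and 0.85 for *Egr1* once the length and GC trend was taken out. With library weights *Klf8* was at 1.07, *C1galt1* at 0.12, *Lyz2* at -0.18 and *Selplg* at -0.047. *Junb* was at -0.019 without WT replicate 1, and *Klf9* at -0.66 without replicate 3 labelled Bach2-cKO. The cause was not tested.

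The replicate block, which cannot move a log2 fold change in a balanced design, called 0 genes higher and 0 lower. Same-numbered libraries deviated with r of -0.069, 0.116 and -0.039, beside 0.117 for WT replicate 1 and replicate 3 labelled Bach2-cKO. Values this near 0 cannot settle whether the samples were paired. The oxysterol list had no gene with a mean of at least 50, so it has no median there. Depth was known for 5 libraries only, and among the members counting error was largest for *Gpr18* in replicate 1 labelled Bach2-cKO, at 11.4% on 77 reads.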
